A study of Homo sapiens with 4 samples.

Results

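The AP-1 family was described in nascent RNA of U2OS cells, a human osteosarcoma line, after a change of sodium in the medium. Its 8 genes were chosen by symbol: FOS, FOSB, FOSL1 and FOSL2, which encode the FOS proteins, JUN, JUNB and JUND, which encode the JUN proteins, and ATF3, which encodes a related factor. They are 8 of the 57428 genes with an entry on their own strand, and all 8 were among the 21238 genes with enough reads to be tested. The hypertonic group was grown in medium raised to 300 mM sodium with concentrated phosphate-buffered saline, and the isotonic group was kept at 150 mM sodium with a matching volume of ordinary saline. All cells stably overexpressed GFP-DCP1a, a tagged cofactor of mRNA decapping, and were held under G418 selection. In Bru-seq, cells take up bromouridine, and an antibody against it pulls down RNA made while it was present. Here labelling took 30 min at 2 mM with 0 h between labelling and extraction, so a value reflects RNA of that window. Each group has 2 libraries. How long cells were exposed is not stated, nor is it stated that replicates were separate cultures, so p-values cover only the spread among these libraries, possibly technical. The labels say that strand was kept for some samples without saying which, while the tables list the strands apart for all 4 libraries.

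AP-1 is a dimer of proteins with a basic region that contacts DNA and a leucine zipper that joins the partners. JUN proteins pair with each other or with FOS proteins, while FOS proteins need a JUN partner. FOS, FOSB, JUN, JUNB and ATF3 are known as genes that many cells transcribe within minutes of serum, growth factors, stress or handling, and their RNAs are short-lived. Their promoters carry sites for factors that MAP kinases activate, and FOSL1 is known as a later target of AP-1 itself.

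Promoter windows of 300 bases, from 250 before to 50 after a gene's RefSeq start, were read from the RefSeq table for GRCh38.p14. It matched 7 of the 8 genes (all but FOSL1) with 8 windows, ATF3 having 2. These starts are not always those of the counted entries. The JUN window lies wholly within the counted JUN entry (58780788 to 58784327), and so do its motif matches. The TATAAA match of FOS also lies inside the counted FOS entry, which begins at 75278774, while its TGACGT match lies before that entry. The windows below are shown because FOS, FOSB, JUN and ATF3 shared 1 pattern across the libraries, FOSL2 had another and JUND varied least. JUNB shared the pattern of FOS too, but its window is not printed. Of the motifs marked below it held only TATAAA. Whether motifs and pattern go together was not tested. They run 5′ to 3′ on the gene's strand, and capitals mark matches to the response element core TGACGT, to the AP-1 site TGANTCA and to its variant TGACATCA on either strand, and to the TATA box TATAAA on the gene's strand only. The core belongs to the cyclic AMP response element TGACGTCA, which it overlaps wherever the full element occurs, and the AP-1 variant is the one known from the JUN promoter. The windows are FOS at chr14:75278578-75278877 (plus strand), FOSB at chr19:45467746-45468045 (plus), FOSL2 at chr2:28392608-28392907 (plus), JUN at chr1:58783998-58784297 (minus), JUND at chr19:18281573-18281872 (minus) and ATF3 at chr1:212565157-212565456 (plus).
FOS: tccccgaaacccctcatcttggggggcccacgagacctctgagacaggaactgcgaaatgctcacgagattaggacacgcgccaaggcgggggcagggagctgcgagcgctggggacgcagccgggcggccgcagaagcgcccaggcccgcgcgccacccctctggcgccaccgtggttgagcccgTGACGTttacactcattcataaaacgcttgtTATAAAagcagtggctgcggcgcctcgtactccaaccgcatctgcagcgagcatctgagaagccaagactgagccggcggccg
FOSB: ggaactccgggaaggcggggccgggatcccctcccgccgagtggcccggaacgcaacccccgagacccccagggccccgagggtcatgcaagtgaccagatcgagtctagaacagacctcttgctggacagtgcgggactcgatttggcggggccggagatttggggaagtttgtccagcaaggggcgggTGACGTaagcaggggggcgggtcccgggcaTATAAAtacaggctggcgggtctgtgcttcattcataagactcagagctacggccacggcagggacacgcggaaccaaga
FOSL2: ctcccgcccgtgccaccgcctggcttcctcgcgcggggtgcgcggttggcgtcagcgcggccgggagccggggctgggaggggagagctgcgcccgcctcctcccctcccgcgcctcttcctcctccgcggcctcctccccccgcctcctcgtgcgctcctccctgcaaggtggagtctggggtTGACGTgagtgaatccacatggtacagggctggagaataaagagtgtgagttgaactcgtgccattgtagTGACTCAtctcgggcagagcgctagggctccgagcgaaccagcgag
JUN: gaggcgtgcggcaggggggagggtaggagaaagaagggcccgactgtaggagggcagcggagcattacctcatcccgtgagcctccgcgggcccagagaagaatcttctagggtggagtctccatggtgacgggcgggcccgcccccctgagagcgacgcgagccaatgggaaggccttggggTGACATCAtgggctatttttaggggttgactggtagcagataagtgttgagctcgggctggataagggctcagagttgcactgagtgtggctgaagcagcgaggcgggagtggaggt
JUND: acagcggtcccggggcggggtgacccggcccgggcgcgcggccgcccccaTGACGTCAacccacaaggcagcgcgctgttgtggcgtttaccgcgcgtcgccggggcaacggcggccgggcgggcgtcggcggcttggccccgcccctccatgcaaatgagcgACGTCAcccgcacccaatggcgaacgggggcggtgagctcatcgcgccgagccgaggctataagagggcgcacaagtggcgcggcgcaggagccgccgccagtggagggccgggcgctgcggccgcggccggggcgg
ATF3: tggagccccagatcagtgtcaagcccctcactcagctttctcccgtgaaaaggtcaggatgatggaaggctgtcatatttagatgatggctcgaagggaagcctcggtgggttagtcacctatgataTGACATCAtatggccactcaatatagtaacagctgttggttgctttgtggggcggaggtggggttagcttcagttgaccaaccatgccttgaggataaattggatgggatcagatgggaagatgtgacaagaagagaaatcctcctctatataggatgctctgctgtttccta
TGACGT began 64 bases before the start in FOS, 60 in FOSB and 66 in FOSL2, on the gene's strand in each, and 7.98% of the 35116 windows in the table held it. JUND had the full TGACGTCA 200 bases before the start and the hexamer again, on the other strand, at 87 bases. TGACGTCA was in 1.85% of all windows. TGACATCA lay 67 bases before the start in JUN and 123 bases before it in the ATF3 window shown, and 2.61% of windows held it. TATAAA lay 33 bases before the start in FOS, 30 in FOSB and 31 in JUNB, and 230 bases before it in the second ATF3 window. A match anywhere was in 7.33% of all windows. The second ATF3 window, at chr1:212614768-212615067, lies well inside the counted ATF3 entry (212565334 to 212620777). Any other start within that entry was not searched. FOSL2 alone among the 8 windows had TGANTCA, 4 bases after the start, where 7.71% of all windows had a match. The CArG box, which serum response factor binds, and the tonicity element of NFAT5 were in 0 of the 8 windows, against 1.29% and 4.92% of all windows. At such low shares 0 of 8 is no result about these genes. Sites more than 250 bases before the start were not searched. These matches are letters in 1 window and say nothing of binding.

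Total deposited counts came to 28367788 and 23048409 in hypertonic replicates 1 and 2, against 44888307 and 23410787 in isotonic replicates 1 and 2. CPM, the count scaled to a library's effective size after TMM normalization, is used to compare libraries. RPKM, the deposited count scaled by counted length and by 1 constant for each library, is used to compare genes. Log2 CPM over all genes tested correlated at 0.972 between the isotonic libraries and at 0.891 between the hypertonic ones. Hypertonic replicate 2 was closer to isotonic replicates 1 and 2 (0.941 and 0.947) than to hypertonic replicate 1. Hypertonic replicate 1 stood apart from every library, at 0.887 and 0.889 with isotonic replicates 1 and 2. These values are a description across genes that are not independent. Of 7 mesenchymal markers, VIM, RUNX2, SPARC, CDH2 and LGALS1 were tested, while COL1A2 had at most 0.0786 CPM and TWIST1 had 0 counts. Of 8 markers of other cell types, EPCAM, CDH1 and PTPRC were tested, all 3 with positive fold changes and none called by edgeR (adjusted p 0.85 to 0.958). EPCAM, an epithelial marker, measured 4.43 and 9.31 CPM under hypertonic and 7.48 and 2.37 CPM under isotonic medium. PTPRC, a leukocyte marker, measured 5.91 and 4.95 CPM under hypertonic and 2.80 and 3.82 CPM under isotonic medium, so both hypertonic values were the higher ones. CDH1 had at most 1.61 CPM, PECAM1 at most 0.275 CPM and LYZ 1 read in all, while MYOD1, ALB and CD3E had 0 counts. The summed level of the 8 markers was 0.113 and 0.277 RPKM in the hypertonic and 0.173 and 0.0738 RPKM in the isotonic libraries. DCP1A, overexpressed as a GFP fusion, stood at 314 and 199 CPM in hypertonic replicates 1 and 2 and 283 and 630 CPM in isotonic replicates 1 and 2. In bulk RNA, fewer cells that make a transcript and less of it per cell cannot be told apart.

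No AP-1 gene passed the test between hypertonic and isotonic cells, and most of them differed widely between libraries of 1 group. JUND had the narrowest range, with hypertonic replicate 1 at 2.56 times replicate 2 and isotonic replicate 2 at 1.28 times replicate 1. Isotonic replicate 2 was the highest of the 4 libraries for 7 of the 8 genes. Hypertonic replicate 1 was the second highest for 5 of them, FOS, FOSB, JUN, JUNB and ATF3. For 0 of 8 genes were the 2 hypertonic values both lower than the 2 isotonic values, and for 0 of 8 both higher, where 17.5% and 22.5% of all genes tested were so separated.

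**Figure D1:**
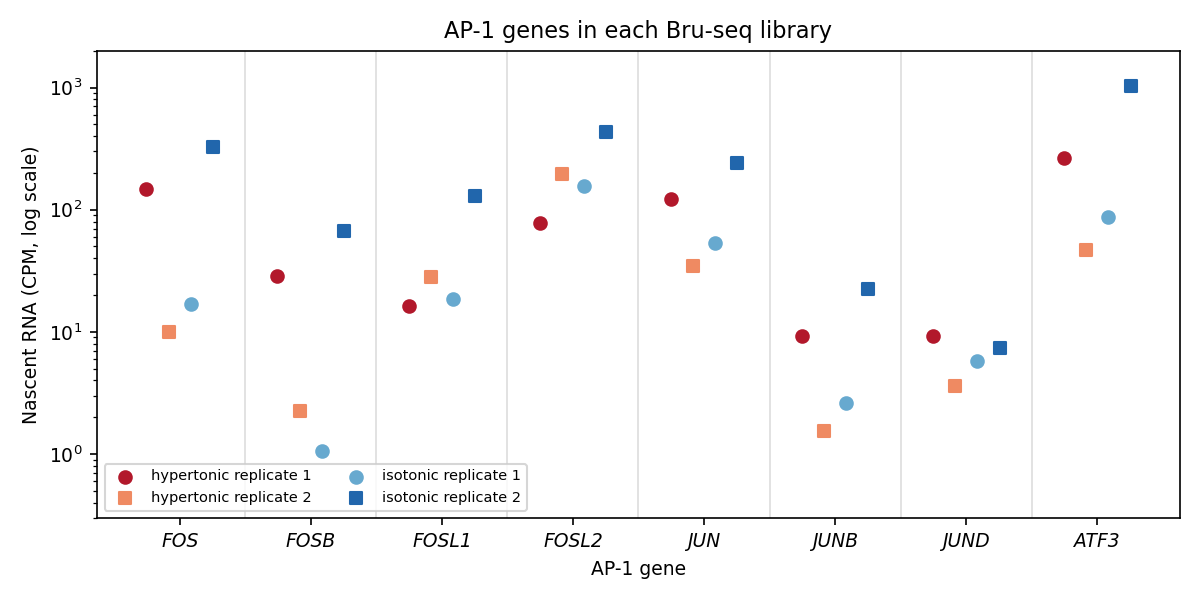
Nascent RNA of each AP-1 gene in CPM on a log axis, with 1 point per library (2 hypertonic, 2 isotonic). The libraries of the groups interleave for every gene, with isotonic replicate 2 on top for 7 of the 8 genes.

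FOS (ENSG00000170345.9, chromosome 14, 75278774 to 75282230, plus strand) is the founding FOS gene and a classic immediate early gene. It measured 148 and 9.9 CPM in hypertonic replicates 1 and 2 and 16.8 and 324 CPM in isotonic replicates 1 and 2. The ranges of the groups overlapped, with 1 high and 1 low library in each. Hypertonic replicate 2 was the lowest of the 4 libraries and isotonic replicate 2 the highest. Hypertonic replicate 1 was 14.9 times replicate 2, and isotonic replicate 2 was 19.3 times replicate 1. The fitted log2 fold change, hypertonic over isotonic, was -1.11 ± 1.27 (SE, n = 2 per group; edgeR quasi-likelihood test, adjusted p = 0.908). Without isotonic replicate 2 it was 2.19, and without hypertonic replicate 1 it was -4.14.

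FOSB (ENSG00000125740.13, chromosome 19, 45467995 to 45475179, plus strand), which encodes the FOS protein with a shorter splice form known as deltaFosB, had the widest range of the family. It measured 28.8 and 2.24 CPM in hypertonic replicates 1 and 2 and 1.05 and 66.8 CPM in isotonic replicates 1 and 2, the highest value being 63.4 times the lowest. The low libraries rested on few reads, 57 in hypertonic replicate 2 and 43 in isotonic replicate 1. For isotonic replicate 1 the exact Poisson 95% interval was 31.1 to 57.9 reads, which covers counting error only. The high libraries were those of FOS, while the lowest was isotonic replicate 1. The log2 fold change was -1.13 ± 1.47 (SE; edgeR, adjusted p = 0.932), but 0.20 in limma-voom and 3.83 without isotonic replicate 2. FOSB lies opposite ERCC1, a DNA repair gene, which measured 14.7 and 41.3 CPM under hypertonic and 28.1 and 36.8 CPM under isotonic medium and so had another order of libraries.

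FOSL1 (ENSG00000175592.8, chromosome 11, 65892049 to 65900526, minus strand) encodes FRA1, a FOS protein that lacks the strong activation domain of FOS. It measured 16.4 and 28.3 CPM in hypertonic replicates 1 and 2 and 18.7 and 130 CPM in isotonic replicates 1 and 2. Only isotonic replicate 2 stood apart, and the other 3 libraries lay within 16.4 to 28.3 CPM. FOSL1 had the lowest p of the family, with a log2 fold change of -1.73 ± 0.79 (SE; edgeR, unadjusted p = 0.0561, adjusted p = 0.479). Without isotonic replicate 2 it was 0.22.

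FOSL2 (ENSG00000075426.11, chromosome 2, 28392802 to 28417312, plus strand) encodes FRA2. It measured 78.1 and 196 CPM in hypertonic replicates 1 and 2 and 155 and 433 CPM in isotonic replicates 1 and 2. Replicate 2 was the higher library in both groups, by 2.51 times in hypertonic and 2.79 times in isotonic cells. The log2 fold change was -1.10 ± 0.60 (SE; edgeR, adjusted p = 0.585), and it stayed negative without any 1 library, from -1.92 without hypertonic replicate 2 to -0.22 without isotonic replicate 2. FOSL2 overlaps AC104695.3 on its own strand, and 296 of its bases were not counted.

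JUN (ENSG00000177606.6, chromosome 1, 58780788 to 58784327, minus strand) encodes the JUN protein that JNK phosphorylates. It measured 123 and 34.8 CPM in hypertonic replicates 1 and 2 and 53.2 and 242 CPM in isotonic replicates 1 and 2. The order of libraries was that of FOS, over a range of 6.96 times. The log2 fold change was -0.91 ± 0.75 (SE; edgeR, adjusted p = 0.812), and 0.52 without isotonic replicate 2.

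JUNB (ENSG00000171223.5, chromosome 19, 12791496 to 12793315, plus strand) encodes a JUN protein that is a weaker activator than JUN. It measured 9.25 and 1.53 CPM in hypertonic replicates 1 and 2 and 2.60 and 22.5 CPM in isotonic replicates 1 and 2, again in the order of FOS. The lowest value rested on 39 reads (exact Poisson 95% interval 27.7 to 53.3). The log2 fold change was -1.21 ± 1.07 (SE; edgeR, adjusted p = 0.840), and 1.01 without isotonic replicate 2.

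JUND (ENSG00000130522.5, chromosome 19, 18279760 to 18281622, minus strand) is the JUN gene known for steady expression. It measured 9.17 and 3.58 CPM in hypertonic replicates 1 and 2 and 5.76 and 7.38 CPM in isotonic replicates 1 and 2. This was the narrowest range of the family, 2.56 times, and the single gene whose highest library was hypertonic replicate 1. The log2 fold change was -0.04 ± 0.69 (SE; edgeR, adjusted p = 0.998), but 0.10 with total-count scaling and 0.17 with upper-quartile scaling.

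ATF3 (ENSG00000162772.16, chromosome 1, 212565334 to 212620777, plus strand) encodes a stress-induced factor that represses as a homodimer and also pairs with JUN proteins. It measured 263 and 46.6 CPM in hypertonic replicates 1 and 2 and 86.8 and 1036 CPM in isotonic replicates 1 and 2. Isotonic replicate 2 held 20083 reads, the most of any AP-1 gene in a library, and the order of libraries was that of FOS. The log2 fold change was the most negative of the 8, -1.86 ± 1.05 (SE; edgeR, adjusted p = 0.604). Without isotonic replicate 2 it was 0.80.

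All 8 fitted fold changes were negative, with a median of -1.12, while 47.6% of all genes tested were negative and their median was 0.04. This direction rested on isotonic replicate 2: without it 1 of 8 genes (FOSL2) was negative and the family's median was 0.66. At an adjusted p under 0.05, edgeR called 0 of the 8 genes, where it called 0.0% of all genes in either direction (lowest adjusted p 0.192). At an unadjusted p under 0.05 it called 0 of 8, against 8.89% of all genes higher and 2.01% lower. DESeq2 also called 0 of 8, against 3.32% of all genes higher and 0.118% lower. Without the filter on low counts edgeR called ATF3 (adjusted p = 0.00108) and FOSL1 (adjusted p = 0.0482) lower, where 0.126% of 37347 genes were called lower and 2.33% higher. Without hypertonic replicate 2 it called FOSL2 lower (adjusted p = 0.0273), where 10.3% of 22940 genes were called lower and 11.1% higher. Over 10 alternatives on all 4 libraries the adjusted p ranged from 0.00108 to 0.931 for ATF3, from 0.0482 to 0.91 for FOSL1 and from 0.189 to 0.884 for FOSL2. The calls of ATF3 and FOSL1 without the filter came with smaller SE, not with much larger fold changes. ATF3 stood at -1.93 ± 0.43 without the filter and -1.86 ± 1.05 with it. FOSL1 stood at -1.78 ± 0.55 without the filter and -1.73 ± 0.79 with it. An exact two-sided permutation test of 2 against 2 libraries cannot go below p = 0.333, and for single genes it gave 0.667 or 1.

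**Figure D2:**
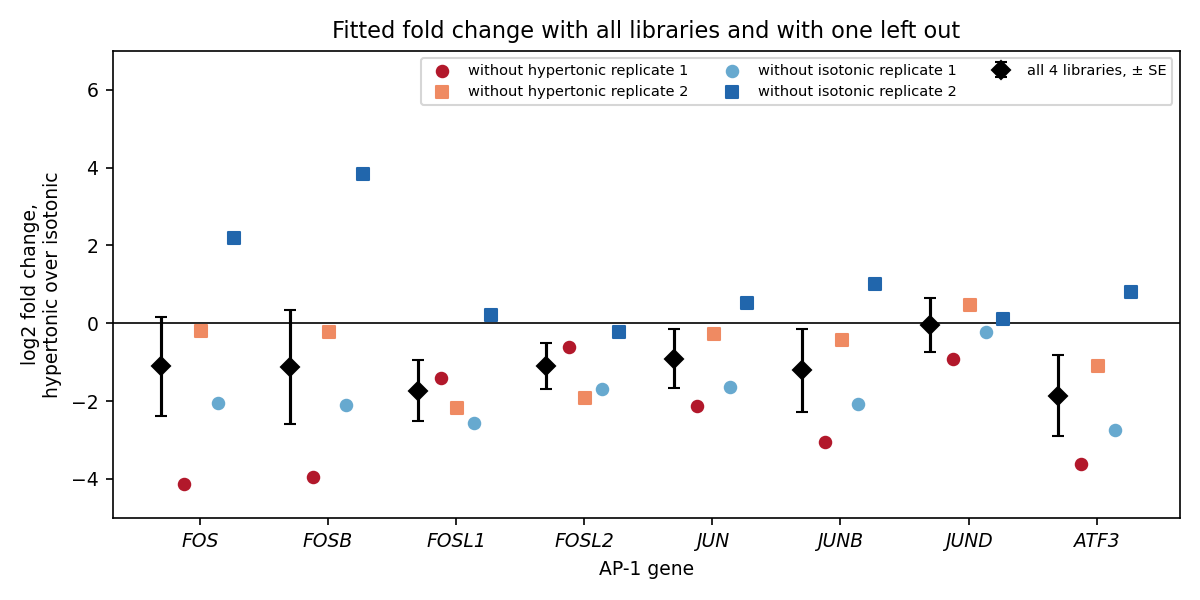
Fitted log2 fold change, hypertonic over isotonic, of each AP-1 gene: black diamonds with bars are all 4 libraries ± SE, and coloured points leave out 1 library each. Without isotonic replicate 2 the values of 7 genes lie above 0, up to 3.83 for FOSB, while FOSL2 is at -0.22.

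Between replicates, 5 of the 8 genes differed at least 2-fold in opposite order in the groups. JUND had the same order at smaller size, with log2 ratios of replicate 2 over 1 of 0.33 in isotonic and -1.25 in hypertonic cells. FOSL1 and FOSL2 were higher in replicate 2 of both groups. Isotonic replicate 2 was at least 2-fold above replicate 1 for 7 of 8 AP-1 genes (all but JUND), against 3.8% of all genes tested. Hypertonic replicate 1 was at least 2-fold above replicate 2 for 6 of 8, against 15.2%. Both held for 5 of 8, FOS, FOSB, JUN, JUNB and ATF3, against 0.49% of all genes (104 of 21238). The reverse, with isotonic replicate 1 and hypertonic replicate 2 at least 2-fold above their partners, held for 0 of 8 and for 0.862% of all genes. These 2-fold rules were chosen after the values were seen. The median log2 ratio of isotonic replicate 2 over 1 was 2.83 for the family and 0.00 for all genes. The median log2 ratio of hypertonic replicate 2 over 1 was -2.03 for the family and 0.09 for all genes. As the hypertonic libraries also differed more from each other over all genes (median size of the log2 ratio 0.76, against 0.30 for the isotonic ones), the isotonic difference was the more unusual of the pair for each of these 5 genes. Between libraries with the same number, 6 of 8 genes were higher in hypertonic than in isotonic replicate 1, and 8 of 8 were lower in hypertonic than in isotonic replicate 2. FOS stood at a log2 ratio of 3.10 in replicate 1 and -4.96 in replicate 2. What set these libraries apart was not tested.

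**Figure D3:**
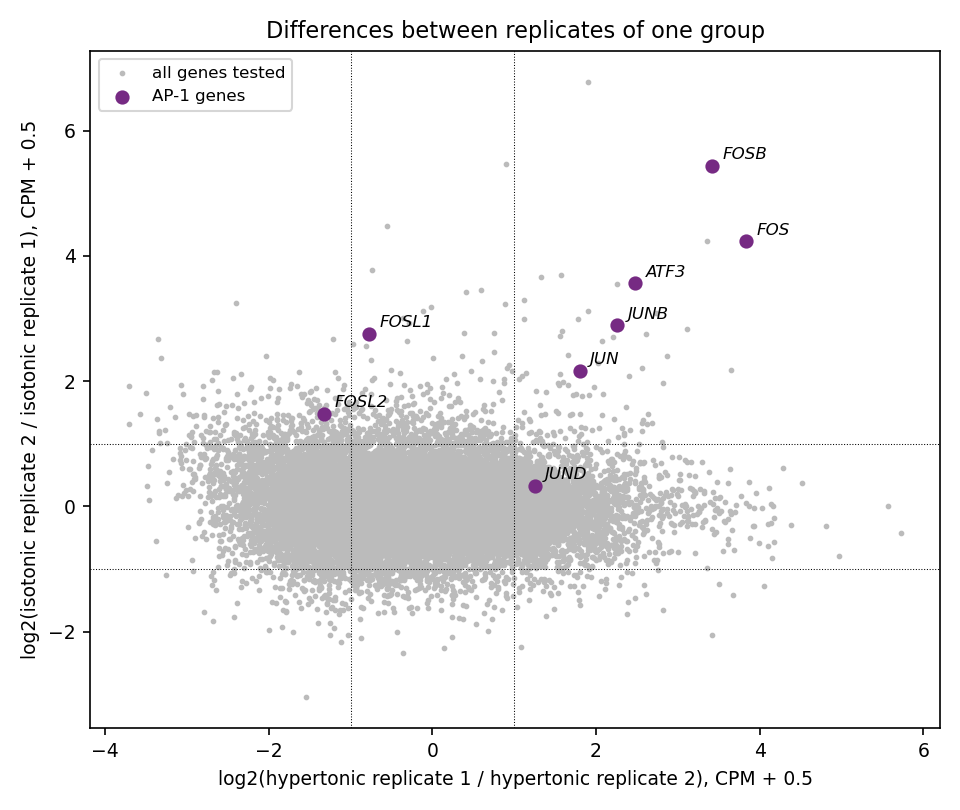
Log2 ratio of hypertonic replicate 1 over 2 (x) and of isotonic replicate 2 over 1 (y), from CPM + 0.5, for all 21238 genes tested (grey) and the AP-1 genes (purple), with dotted lines at 2-fold. FOS, FOSB, JUN, JUNB and ATF3 lie in the upper right field, which holds 0.49% of all genes.

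Per length, FOS and JUN had the highest group means of the AP-1 genes, while FOSL2 exceeded FOS in hypertonic replicate 2 and isotonic replicate 1. FOS had 29 and 2.70 RPKM in hypertonic replicates 1 and 2 and 3.97 and 69.9 RPKM in isotonic replicates 1 and 2. JUN had 23.6 and 9.26 RPKM in hypertonic replicates 1 and 2 and 12.3 and 51.1 RPKM in isotonic replicates 1 and 2. In order of the hypertonic mean RPKM the genes ran JUN (16.4), FOS (15.9), FOSL2 (4.91), JUND (2.57), FOSL1 (2.23), JUNB (2.12), ATF3 (2.01) and FOSB (1.51). In order of the isotonic mean they ran FOS (36.9), JUN (31.7), FOSL2 (9.30), ATF3 (7.62), FOSL1 (6.61), JUNB (5.19), FOSB (3.53) and JUND (2.74). The 2 libraries of each gene overlapped in range with those of its neighbour in either order. The ATF3 entry spans 55444 bases, against 3457 for FOS and 3540 for JUN, so its RPKM is low for its reads.

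The make-up of the family moved with the high and low libraries. FOS took 42.2% and 10.2% of the summed RPKM of the 8 genes in hypertonic replicates 1 and 2, against 14.0% and 39.1% in isotonic replicates 1 and 2. JUN held a narrower share, 34.2% and 35.1% in the hypertonic and 43.3% and 28.6% in the isotonic libraries. FOSL2 took 3.18% and 28.9% in hypertonic replicates 1 and 2, against 18.5% and 7.47% in isotonic replicates 1 and 2, so it ranked second where FOS was low. The FOS class together took 51.2% and 52.1% in the hypertonic and 39.2% and 56.8% in the isotonic libraries, and the JUN class 44.1% and 44.9% against 56.3% and 35.4%. The summed level was 68.9 and 26.4 RPKM in hypertonic replicates 1 and 2 and 28.4 and 179 RPKM in isotonic replicates 1 and 2.

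**Figure D4:**
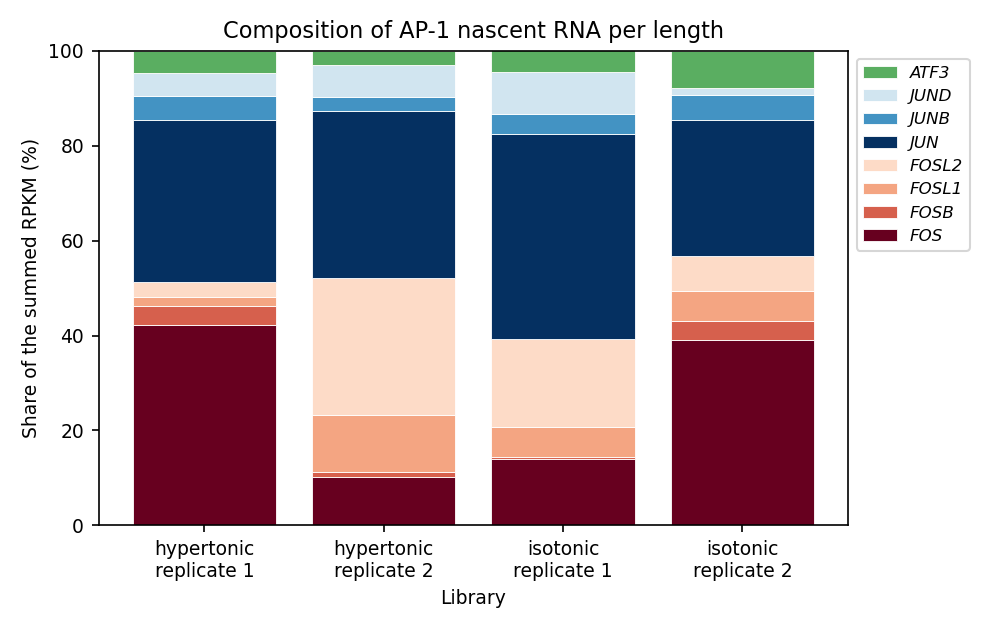
Share of each AP-1 gene in the summed RPKM of the 8 genes, in percent, 1 bar per library. FOS makes up 42.2% of hypertonic replicate 1 and 39.1% of isotonic replicate 2, and FOSL2 28.9% of hypertonic replicate 2 and 18.5% of isotonic replicate 1.

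Reads on the strand opposite to the gene were few for most AP-1 genes with an entry for that strand. FOSB had no such entry, so its antisense reads could not be described. FOS and JUN had 0 to 2 such reads in every library, and JUND 0 or 1. The ATF3 antisense entry held 343 and 172 reads in hypertonic replicates 1 and 2, against 118 and 205 in isotonic replicates 1 and 2. Within 10 kb upstream on the same strand, a neighbouring gene was listed for FOS, JUNB, JUND and ATF3, and each neighbour (AF111167.1, MIR5684, RPL39P38 and LINC01740) had 0 to 0.982 CPM in every library.

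Genes with a profile like that of FOS were sought over the 4 libraries among 12173 tested genes with a mean of at least 5 CPM, by the root mean square difference of log2 CPM centred on each gene's mean. The 5 closest were FOSB (0.58), ATF3 (0.59), AC037198.2 (0.59), DUSP5 (0.61) and PTGS2 (0.68). DUSP5 encodes a nuclear phosphatase of ERK, and PTGS2 encodes the inducible cyclooxygenase. DUSP5 measured 24.2 and 4.68 CPM in hypertonic replicates 1 and 2 and 5.84 and 73.7 CPM in isotonic replicates 1 and 2. PTGS2 measured 7.81 and 0.864 CPM in hypertonic replicates 1 and 2 and 1.81 and 15.1 CPM in isotonic replicates 1 and 2. Of the family, JUNB lay at 0.73 from FOS, JUN at 1.02, JUND at 1.70, FOSL1 at 1.71 and FOSL2 at 2.07.

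The 5 genes closest to the mean profile of the family were DUSP2 (0.05), MAFF (0.06), IER2 (0.10), THBS1 (0.15) and ERRFI1 (0.29). DUSP2 is a phosphatase of MAP kinases, MAFF a small MAF protein with a leucine zipper, THBS1 encodes the matrix protein thrombospondin and ERRFI1 a feedback inhibitor of the EGF receptor. THBS1 measured 191 and 50.5 CPM in hypertonic replicates 1 and 2 and 64.8 and 566 CPM in isotonic replicates 1 and 2. It shares bases with another gene on its strand. MAFF measured 60.5 and 20.2 CPM in hypertonic replicates 1 and 2 and 25.1 and 168 CPM in isotonic replicates 1 and 2. A likeness over 4 libraries is a description of these libraries.

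**Figure D5:**
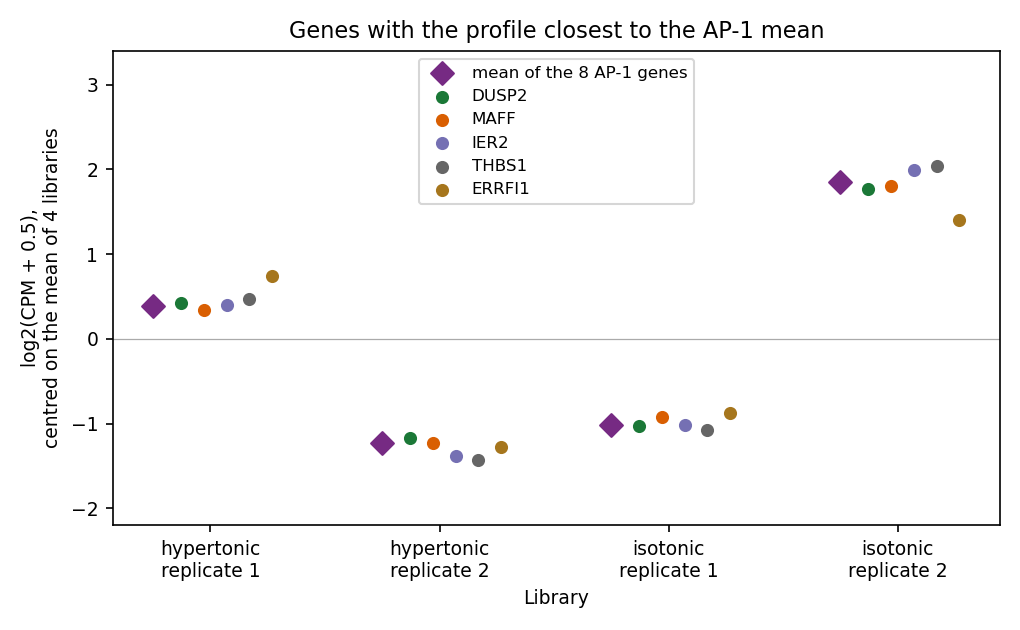
Log2(CPM + 0.5) centred on the mean of the 4 libraries, for the mean of the 8 AP-1 genes (diamonds) and the 5 genes closest to it (dots). The AP-1 mean is at 0.39 and -1.23 in hypertonic replicates 1 and 2 and at -1.01 and 1.85 in isotonic replicates 1 and 2.

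Partners of FOS and JUN proteins among other leucine zipper factors did not pass the test. Of 15 listed, 12 were tested, 4 with a positive and 8 with a negative fold change and a median of -0.34, and edgeR called 0. NFE2L2, the factor of the oxidative stress response, measured 96.6 and 98.7 CPM under hypertonic and 149 and 188 CPM under isotonic medium (log2 fold change -0.79 ± 0.38, SE). CREB5 stood at -0.90 ± 0.50 and MAFF at -1.26 ± 0.82. The groups did not overlap for NFE2L2 and others, hypertonic being lower for 4 of the 12 and higher for 2, against 17.5% and 22.5% of all genes. Only MAFF showed the 2-fold differences between replicates seen for FOS.

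Factors that act at the FOS and JUN promoters had 14 tested genes, 3 positive and 11 negative, with a median of -0.25 and 0 calls. SRF, which encodes serum response factor, measured 17.7 and 11.3 CPM under hypertonic and 16.7 and 52.5 CPM under isotonic medium (-1.25 ± 0.64). MEF2D stood at -0.71 ± 0.49 and ELK4, a partner of SRF, at -0.54 ± 0.42. The crossing differences between replicates held for 0 of 14. MAP kinases and the kinases above and below them had 23 tested genes, 8 positive and 15 negative, with a median of -0.13. EdgeR called 0 of them, while DESeq2 called 1 of 23, MAPK13, higher (adjusted p = 0.0029), beside 3.32% of all genes. MAPK13, a p38 kinase, measured 17.5 and 1.93 CPM in hypertonic replicates 1 and 2 and 1.01 and 0.413 CPM in isotonic replicates 1 and 2 (3.73 ± 1.09; edgeR, adjusted p = 0.265). MAPK11, another p38 kinase, stood at 1.30 ± 0.91 and MAPK8, which encodes JNK1, at -0.58 ± 0.41, and the crossing differences held for 0 of 23. Factors of AP-1 mRNA and protein turnover had 10 tested genes, 3 positive and 7 negative, with a median of -0.22 and 0 calls. In that list HNRNPD, which binds AU-rich elements, stood at -0.90 ± 0.50, ELAVL1 at -0.61 ± 0.50 and ZFP36L2 at 0.60 ± 0.61. ZFP36, whose product speeds decay of such RNAs, was the 1 of 10 with the crossing differences.

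Known targets of AP-1 did not share the direction of the family. Of 25 listed, 22 were tested, 12 positive and 10 negative, with a median of 0.03. EdgeR called 0, and DESeq2 called 1 of 22, CXCL8, lower (adjusted p = 0.000217), beside 0.118% of all genes. CXCL8, a neutrophil chemokine, measured 1.27 and 0.314 CPM in hypertonic replicates 1 and 2 and 2.99 and 33.9 CPM in isotonic replicates 1 and 2 (-4.54 ± 1.21; edgeR, adjusted p = 0.224). DUSP1, a phosphatase of p38 and JNK, measured 67.1 and 20.9 CPM in hypertonic replicates 1 and 2 and 53.8 and 291 CPM in isotonic replicates 1 and 2 (-1.97 ± 0.79). CD44, the hyaluronan receptor, stood at -1.0 ± 0.47, with 178 and 156 CPM under hypertonic and 203 and 464 CPM under isotonic medium. The crossing differences held for 3 of 22, CXCL8, AREG and DUSP1. The collagenase gene MMP1, a textbook AP-1 target, had at most 0.118 CPM and was not tested.

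Other immediate early genes came closest to the family. Of 15 listed, 13 were tested, 3 positive and 10 negative, with a median of -1.41 and 0 calls in edgeR. The crossing differences held for 6 of 13, EGR1, EGR2, NR4A3, IER2, IER3 and MYC, beside 5 of 8 in the family and 0.49% of all genes. The 3 with the lowest p were KLF6 at -1.89 ± 0.54 (edgeR, adjusted p = 0.261), NR4A3 at -4.64 ± 1.62 (adjusted p = 0.338) and KLF10 at -1.25 ± 0.51 (adjusted p = 0.416). DESeq2 called 1 of 13, KLF6, lower (adjusted p = 0.0499), beside 0.118% of all genes. EGR1, a zinc finger factor that serum response factor also drives, measured 166 and 55.6 CPM in hypertonic replicates 1 and 2 and 57.3 and 747 CPM in isotonic replicates 1 and 2.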

How the data were processed

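Bru-seq libraries, 2 hypertonic and 2 isotonic, were analysed. Tools named in the submitters' processing notes are STAR 2.5.3a, Bowtie2 2.3.3, bedtools 2.16.2 and CASAVA 1.8.2, on hg38 (GRCh38). Their roles and the annotation used were not given in the sources used here. The authors deposited an expected count and an RPKM value for each of 105538 gene and strand entries, in tables without a header, so both units were read from the values. Counts within 0.01 of a whole number made up 73.9 to 79.6% of values above 0 and under 50. RPKM was the deposited count per kilobase of the counted length and per 1 constant of each library. The 48 entries for bases shared by genes, which held 3.11 to 3.48% of counts, 45 pseudoautosomal Y copies and 259 genes without a match in GENCODE release 29 were left out. That annotation gave each gene's strand. Coordinates are those of the tables on GRCh38, counted from 1. No molecular identifiers are mentioned in the labels, and counts are taken as reads.

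Expected counts were rounded and tested in edgeR 4.0.16 (R 4.3.3) with TMM factors of 0.947, 1.22, 0.974 and 0.887 for hypertonic replicates 1 and 2 and isotonic replicates 1 and 2, filterByExpr, quasi-likelihood F tests and adjustment by Benjamini-Hochberg at 0.05 over 21238 genes. Each SE was taken as the absolute log2 fold change over the root of F. Ratios between single libraries used CPM + 0.5. DESeq2 1.42.0, limma-voom (limma 3.58.1), other scalings, no filter, the replicate number as a block, each library left out, counts of both strands, and log2(RPKM + 0.1) and log2(RPKM + 1) in limma were alternatives. The edgeR step was tested on simulated counts with a fixed dispersion, not one estimated from these libraries. The likeness step was tested on a planted near-copy of the FOS profile. Both check that the steps run as meant, not how they perform at the spread seen here. Members and lists were chosen with earlier results of these data known, and motifs after the promoter windows had been read. Named genes were all 8 members, the 3 genes of each list with the lowest p, the 5 genes closest to FOS and to the family mean, and same-strand neighbours within 10 kb. ERCC1, AC104695.3, DCP1A, EGR1, MMP1 and the listed genes with crossing differences were named after their values were seen. Figures were drawn with matplotlib 3.10.9.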

Additional observations from a re-analysis of the deposited data

Results flagged for a closer look

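The antisense entry of FOSL1, which the comparisons do not use, stood above the isotonic level in both hypertonic libraries. It measured 1.90 and 5.19 CPM in hypertonic replicates 1 and 2 and 0.85 and 0.723 CPM in isotonic replicates 1 and 2, from 45 and 132 reads against 35 and 14. These reads made up 11.6% and 18.3% of the FOSL1 sense count in the hypertonic and 4.55% and 0.557% in the isotonic libraries. CCDC85B, on that strand, ends 413 bases before this entry, and measured 0.634 and 0.484 CPM under hypertonic and 1.05 and 0.31 CPM under isotonic medium. Its part in the antisense reads was not tested. Over all genes, antisense entries held 2357336 and 1338612 counts in hypertonic replicates 1 and 2, of totals of 28367788 and 23048409. In isotonic replicates 1 and 2 they held 1372129 and 761055, of totals of 44888307 and 23410787. The antisense share of all counts was thus also higher in both hypertonic libraries. That share was highest in hypertonic replicate 1, while FOSL1 antisense CPM was highest in hypertonic replicate 2. Whether the FOSL1 difference goes with that of all genes was not tested.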

How the results depend on the processing

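On all 4 libraries, 77 of 80 member fold changes under 10 alternatives were negative; the others were JUND at 0.10 (total count) and 0.17 (upper quartile) and FOSB at 0.20 (limma-voom). Scaling moved the median of all genes from 0.04 with TMM to 0.26 by total count and 0.23 by upper quartile, and the family's median to -1.0 and -0.92. With 1 library left out, the family's median ranged from -2.58 to 0.66 and its number of negative genes from 1 to 8. The fold changes then ranged from -4.14 to 2.19 (FOS), -3.94 to 3.83 (FOSB), -2.57 to 0.22 (FOSL1), -1.92 to -0.22 (FOSL2), -2.12 to 0.52 (JUN), -3.05 to 1.01 (JUNB), -0.91 to 0.48 (JUND) and -3.62 to 0.80 (ATF3). A lone library was assumed to vary like the other group. Calls over all genes were 0 in edgeR (1889 genes higher and 427 lower at an unadjusted p under 0.05) and 0 in limma-voom (1628 higher and 506 lower). They were 731 in DESeq2, 916 without the filter and 0 to 4918 with 1 library left out (4918 without hypertonic replicate 2, 6 without isotonic replicate 1, 4 without isotonic replicate 2). The cause was not tested. With the replicate number as a block edgeR called 384 genes, 0 of them AP-1 genes. Same-numbered libraries deviated together at a correlation of 0.0247 over all genes tested, and the numbers were not taken as pairs. With 2 libraries per group this is 1 value over all genes, and it cannot exclude a pairing that acts on some of them. Depth limits FOSB, JUNB and JUND, with 43, 39 and 91 reads in their lowest libraries.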

Other observations

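Among AP-1 genes with an antisense entry, ATF3 was the other with appreciable antisense reads. They amounted to 14.5 and 6.76 CPM in hypertonic replicates 1 and 2 and 2.89 and 10.6 CPM in isotonic replicates 1 and 2, so hypertonic replicate 1 and isotonic replicate 2 were again the high libraries. As a share of the sense count they were 5.51% and 14.5% in hypertonic replicates 1 and 2, against 3.33% and 1.02% in isotonic replicates 1 and 2, an order unlike that of the sense strand. The antisense share over all genes was also higher in both hypertonic libraries. AC104695.3, which shares bases with FOSL2 on its strand, measured 1.27 and 2.71 CPM in hypertonic replicates 1 and 2 and 3.34 and 12.9 CPM in isotonic replicates 1 and 2.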
